A study of Rattus norvegicus with 23 samples.

Results

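Fatty acid oxidation and the targets of the nuclear receptor PPAR-alpha were examined in rat liver through a list of 47 genes. They were chosen by symbol, with earlier results of these data known, so the counts below are not an independent test of the list. The list covers the receptor itself, fatty acid uptake and activation, carnitine transfer, mitochondrial and peroxisomal beta-oxidation, omega-hydroxylation, acyl-CoA thioesterases and other PPAR-alpha targets. Of these 47 genes, 45 had a row among the 28913 rows of the count table, and 44 were among the 15079 genes with enough counts to be tested. Decr2 and Acaa1b were not matched by symbol. The thioesterase gene Acot1 had a row but held 186 counts over all libraries and was not tested.

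The 23 liver libraries came from Sprague Dawley rats in 3 groups of a study modelling portosinusoidal vascular disease, in which small portal vessels and sinusoids of the liver are altered. The 6 Control libraries came from untreated rats. The 7 LPS libraries came from rats that had abdominal surgery to place a permanent catheter leading to the portal vein, and then received 1 mg/kg of bacterial lipopolysaccharide (LPS) as a bolus 2 times a week for 8 weeks. For the 10 Selfox libraries, rats ate food enriched in selenium over 8 weeks and had 8 weekly intravenous injections of oxaliplatin (3 mg/kg), 5-fluorouracil (25 mg/kg) and folinic acid (45 mg/kg). Untreated rats had neither the surgery nor the injections, so surgery and LPS cannot be told apart, and neither can the diet and the drugs of Selfox. The labels do not say that each library is a separate rat, so p-values measure the spread between these libraries, which may be technical.

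In the fasted liver, fatty acids are taken up, joined to coenzyme A, carried into mitochondria as carnitine esters and shortened by beta-oxidation, and the product feeds ketone body synthesis. Very long and branched chains are shortened first in peroxisomes, and cytochrome P450 enzymes of the Cyp4a family oxidise the far end of the chain. PPAR-alpha binds fatty acids, pairs with a retinoid X receptor on DNA and switches on genes for each of these steps, with the strongest responses in rodent liver typically seen in Cyp4a, Acot and peroxisomal genes. The DNA element it binds is a direct repeat of the hexamer AGGTCA with 1 base between the copies.

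RefSeq promoters (assembly GRCr8, from 250 bases before to 50 bases after the annotated start) were matched by symbol for 40 of the 47 genes; those of Acadl, Acaa2, Ech1, Decr1, Cyp4a1, Vnn1 and Ephx2 were not matched. The direct repeat was searched on both strands. With at most 1 mismatch over the pair of hexamers it was found in 5 of the 40 promoters, and in 147 of all 33469 promoters of the table (0.4392%). These 5 stretches are shown because they hold the closest matches among the genes described here; capitals mark the matched repeat, and each stretch is read 5′ to 3′ on the strand of the gene.
Acadvl: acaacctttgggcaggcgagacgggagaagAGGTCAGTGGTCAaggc
Acot4: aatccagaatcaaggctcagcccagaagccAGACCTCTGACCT
Acot12: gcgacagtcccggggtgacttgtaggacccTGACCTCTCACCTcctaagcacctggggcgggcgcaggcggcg
Acot8: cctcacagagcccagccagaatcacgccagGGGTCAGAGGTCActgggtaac
Fabp1: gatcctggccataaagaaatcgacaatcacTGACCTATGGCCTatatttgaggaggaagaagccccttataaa
The Acadvl stretch lies at chr10:55236706-55236752 on the minus strand, that of Acot4 at chr6:109399811-109399853 (plus), that of Acot12 at chr2:24721824-24721896 (plus), that of Acot8 at chr3:173962189-173962240 (minus) and that of Fabp1 at chr4:104749233-104749305 (plus). In Acot4, Acot12 and Fabp1 the repeat is on the strand opposite to the gene. The first base of the match stands 17 bases before the start in Acadvl, 13 in Acot4, 22 in Acot8, 77 in Fabp1 and 105 in Acot12.

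With at most 2 mismatches the repeat was in 10 of the 40 promoters, against 3.7736% of all promoters, and in 0 of 40 (0.0538% of all) without a mismatch. The hexamer AGGTCA alone, with no mismatch, which overlaps the repeat, was in 13 of 40 promoters, against 16.2% of all. A match describes letters in this window and not a bound site, and a promoter without one may hold an element elsewhere. Hadha and Hadhb, which encode the 2 chains of the mitochondrial trifunctional protein, are arranged head to head. Their starts are 300 bases apart, and the stretch between them at chr6:31907551-31907750, shown on the plus strand, belongs to both promoters.
Hadha and Hadhb: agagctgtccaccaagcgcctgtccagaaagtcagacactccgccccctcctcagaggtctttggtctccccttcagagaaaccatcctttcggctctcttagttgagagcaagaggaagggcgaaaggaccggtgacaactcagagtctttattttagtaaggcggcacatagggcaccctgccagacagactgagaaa
The promoters of Acot2, Acot1, Acot4 and Acot3 follow each other in this order on the plus strand of the same chromosome, from base 109342590 to base 109413746.

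Libraries held 31.9 M to 53.8 M counts in Control, 70.4 M to 79.2 M in LPS and 65.1 M to 74.8 M in Selfox, so depth and treatment cannot be told apart; thinned to 1 depth, as many of the 44 genes were called in LPS and Selfox against Control. The 10 hepatocyte markers summed to 160445 to 243259 CPM in Control (median 186090), 126538 to 196996 in LPS (median 179111) and 142072 to 165257 in Selfox (median 155419). Of the Selfox libraries, 9 of 10 lay below every Control library. Most of the sum was Alb, with medians of 127615 CPM in Control, 116199 in LPS and 96054 in Selfox. The markers did not move together. In the same order of groups, the medians were 1724, 1240 and 899 for Apoa1, 22186, 25987 and 25885 for Tf, and 4187, 5641 and 5340 for Cps1. The part of these markers in the falls below was not tested. Levels below are counts per M counts (CPM) on library sizes scaled by TMM, a correction for composition, and differences are log2 fold changes with their standard error from edgeR. A gene was called when its p-value, adjusted by Benjamini-Hochberg over all 15079 genes, was under 0.05. In a piece of whole liver, fewer cells of a type and less RNA per cell cannot be told apart.

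One Control library stood apart. Control 55 was the lowest of the 6 Control libraries for 30 of the 44 tested genes. Its median difference from the Control median of each gene over these 44 genes was -0.47 on the log2 scale, against -0.15 to 0.10 in the other 5 Control libraries. The range was -0.79 to -0.35 in LPS and -0.93 to -0.39 in Selfox. Control 55 therefore lay within the range of the treated livers on this summary. It also differed in genes that follow feeding. Fasn (fatty acid synthase) reached 1551 CPM there and at 54.5 to 191 in the other Control libraries. Igfbp1, an insulin-repressed gene, stood at 257 CPM against 644 to 1769. Control 55 was the highest Control library for 6 of 14 feeding-state genes (Srebf1, Fasn, Thrsp, Pklr, Acly and G6pc), and these 6 were also the ones called higher in LPS and, again all 6, in Selfox. Control 55, LPS 5, LPS 6, LPS 7 and Selfox 8 shared another trait, a level of the clock output gene Dbp above that of the clock gene Arntl, and are called the late-clock libraries. The margin differed widely: Dbp and Arntl were nearly equal in Selfox 8 (log2 CPM 3.352 and 3.348) and far apart in LPS 6 (6.55 and 0.53). The part of feeding state and time of day in the results below was not tested; each main count is given with and without these libraries.

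In LPS livers, 25 of the 44 genes fell and 0 rose, while over all genes tested 14.7% changed, 6.99% lower and 7.71% higher. At an unadjusted p under 0.05, edgeR placed 28 of the 44 lower and 2 higher (Acox2 and Cd36), and DESeq2 and limma voom each called 0 higher after adjustment. Of the 25 that fell, 14 did so by at least 2-fold. The median log2 fold change of the 44 genes was -0.46, and that of all genes 0.0058. In Selfox livers, 24 fell and 2 rose, while over all genes 29.1% changed, 14.9% lower and 14.2% higher; 15 of the 24 fell by at least 2-fold, and the median was -0.54 against 0.011 for all genes. Both comparisons use the same 6 Control libraries, so their likeness is not independent evidence. Between the 2 models 3 genes differed: Fgf21 and Acox2 were lower in Selfox than in LPS and Angptl4 was higher, with 14.5% of all genes differing, 7.64% lower and 6.86% higher.

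Without Control 55, 28 genes were lower in LPS and 27 in Selfox of the 45 then tested, Acot1 included, against 8.49% and 15.4% of all genes. All 25 calls in LPS and all 26 in Selfox were among those made without it. Without the 5 late-clock libraries, 27 of 45 were lower in LPS (6.86% of all genes) and 28 of 45 in Selfox (16.1%), and 24 of the 25 and 26 of the 26 calls were kept. Leaving out each library in turn gave 22 to 28 lower in LPS and 23 to 27 lower in Selfox.

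**Figure D1:**
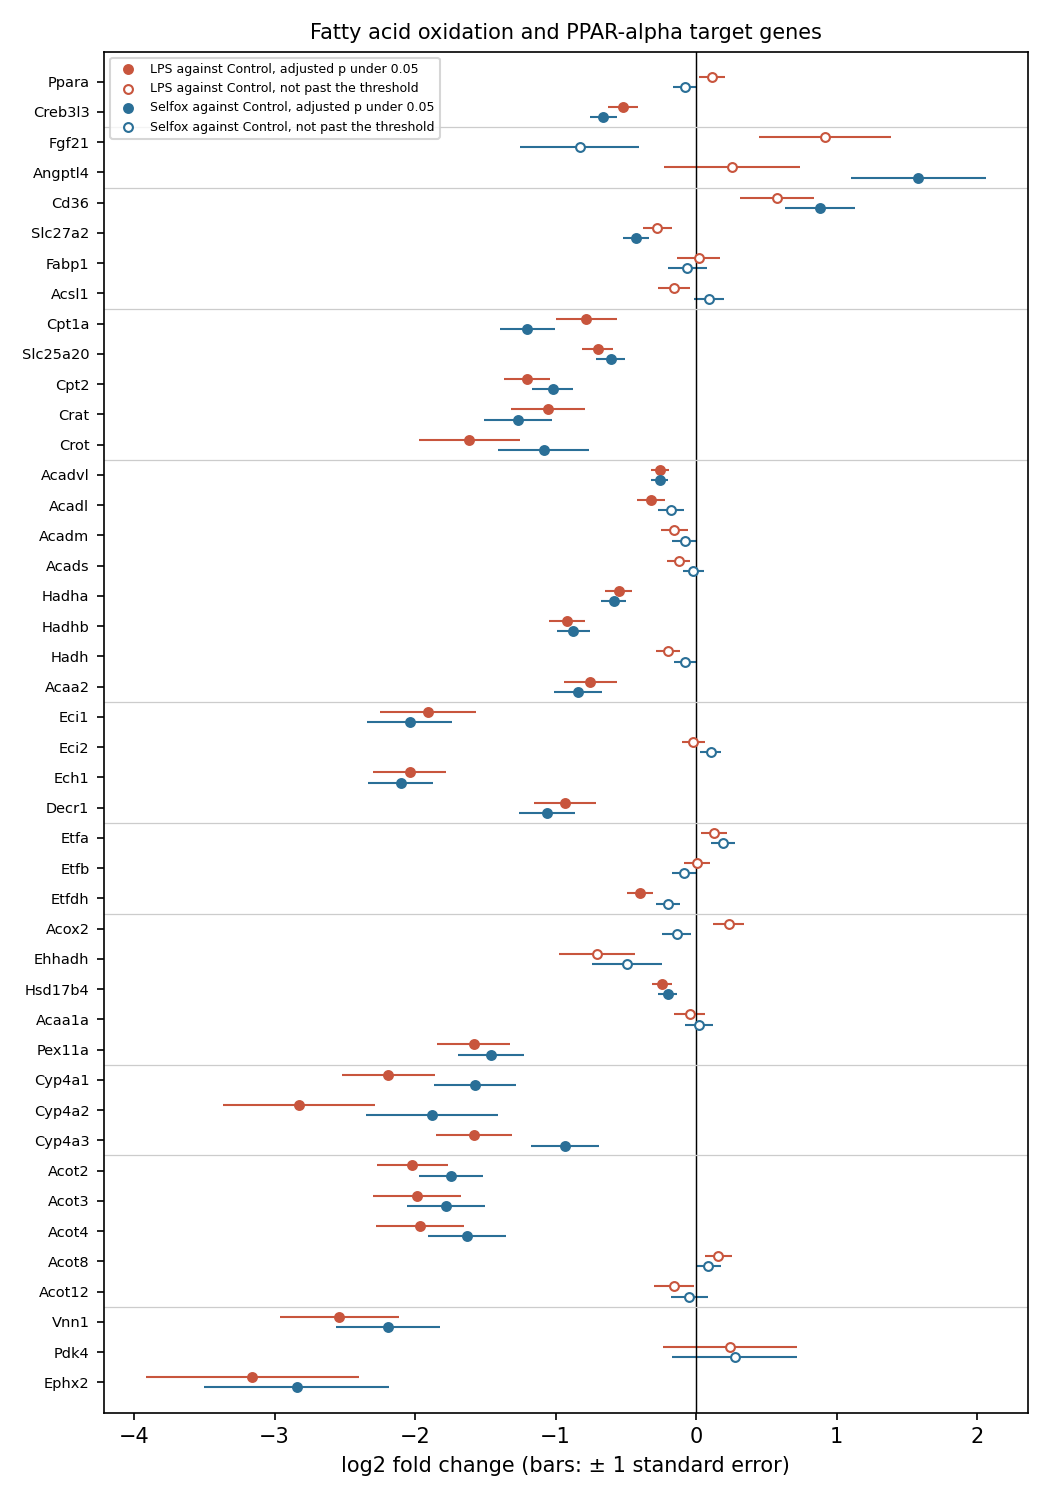
Log2 fold change of each of the 44 tested genes (horizontal axis, with bars of 1 standard error) in LPS (red) and Selfox (blue) against Control; filled points passed the adjusted threshold of 0.05 and grey lines part the roles. Most filled points lie to the left of 0, Angptl4 and Cd36 in Selfox are the filled points to the right, and Ppara lies near 0.

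**Figure D2:**
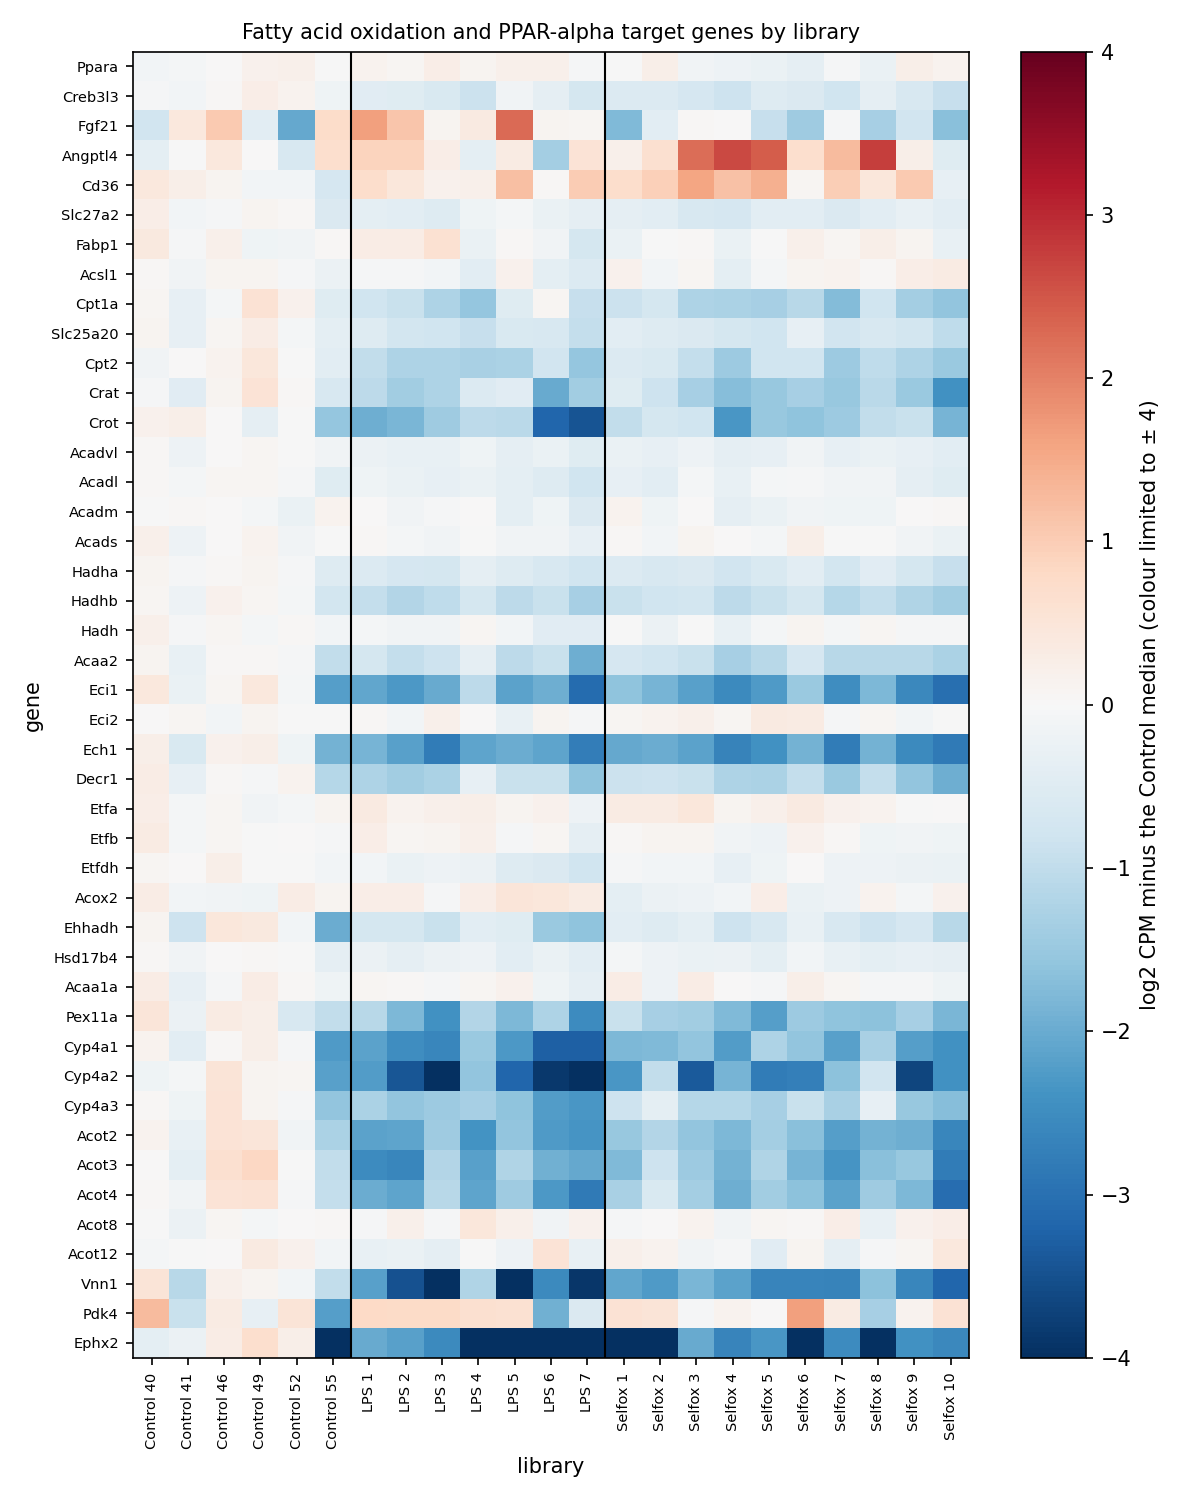
Log2 CPM of each gene (rows) in each of the 23 libraries (columns) minus the Control median, with colour limited to 4 in either direction. Control 55 is blue in the same rows as the LPS and Selfox libraries, among them Eci1, Ech1, the Cyp4a genes and Ephx2.

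The receptor's own transcript was near its Control level in both models. Ppara ran from 42.9 to 53.2 CPM in Control (median 46.7), from 45.3 to 56.2 in LPS (median 51.2) and from 36.3 to 55.4 in Selfox (median 43.8), and the 3 groups overlapped. Its log2 fold change was 0.11 ± 0.09 in LPS (95% interval -0.08 to 0.31, adjusted p = 0.457) and -0.08 ± 0.09 in Selfox (-0.26 to 0.10, adjusted p = 0.520). Creb3l3, a liver transcription factor bound to the endoplasmic reticulum that acts with PPAR-alpha on fasting genes, fell in both. Its change was -0.52 ± 0.10 in LPS (adjusted p = 0.00212) and -0.66 ± 0.10 in Selfox (adjusted p = 3.32e-05), where all 10 libraries lay below every Control library.

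Among 16 tested genes for partners and coregulators of the receptor, 2 fell and 0 rose in LPS, and 3 fell and 5 rose in Selfox. Counts of this and the further related lists below are to be read against the 6.99% lower and 7.71% higher of all genes in LPS, and the 14.9% and 14.2% in Selfox; no list was tested as a set. The retinoid X receptor gene Rxrb fell by 0.22 ± 0.07 in LPS (adjusted p = 0.0447) and by 0.45 ± 0.07 in Selfox (adjusted p = 6.28e-05). Rxrb had medians of 15.7 CPM in Control, 13.2 in LPS and 11.4 in Selfox. Rxra, another retinoid X receptor gene, stood higher, with medians of 166, 170 and 163 CPM. The ranges of Rxra overlapped, at 164 to 174 CPM in Control, 143 to 183 in LPS and 135 to 175 in Selfox. Hnf4a, a regulator of hepatocyte genes, had a change of -0.23 in LPS (adjusted p = 0.116) and fell by 0.53 ± 0.09 in Selfox (adjusted p = 0.000198). Pparg, the related receptor best known from fat cells, rose by 0.99 ± 0.27 in Selfox (adjusted p = 0.0074) and had a change of -0.53 in LPS (adjusted p = 0.215). The difference between the models in Pparg was 1.52 ± 0.25 (adjusted p = 0.000338). Pparg levels were low, at 0.94 to 2.48 CPM in Control (median 1.31), 0.61 to 1.82 in LPS (median 0.96) and 1.24 to 5.26 in Selfox (median 2.86). The Control and Selfox ranges of Pparg overlapped.

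Neither gene for a secreted product fell past the threshold against Control. Fgf21 encodes a hormone that the liver releases in fasting and under stress. Fgf21 levels were 2.98 to 25.7 CPM in Control (median 12.9), 13.1 to 60.2 in LPS (median 16.1) and 3.66 to 12.8 in Selfox (median 6.96). All 10 Selfox libraries lay below all 7 LPS libraries, and both groups overlapped Control. The change from Control was 0.92 ± 0.47 in LPS (adjusted p = 0.198) and -0.83 ± 0.43 in Selfox (adjusted p = 0.149), and the difference of Selfox from LPS was -1.74 ± 0.41 (adjusted p = 0.00606).

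Angptl4 encodes a secreted inhibitor of lipoprotein lipase. Its level was 35.9 to 90.6 CPM in Control (median 56.4), 22.0 to 106 in LPS (median 71.5) and 40.1 to 383 in Selfox (median 112). Selfox 3, 4, 5 and 8 held 265 to 383 CPM, and the other 6 Selfox libraries 40.1 to 135, so the rise was uneven within the group. Angptl4 rose by 1.58 ± 0.48 in Selfox (adjusted p = 0.0163) and its change in LPS was 0.25 ± 0.48 (adjusted p = 0.774). The difference between the models, 1.33 ± 0.45 (adjusted p = 0.0488), was lost in 12 of 17 fits that left out 1 library (each of the 7 LPS libraries or Selfox 3, 4, 5, 7 or 8), with adjusted p up to 0.0916. The summed level of the 6 neutrophil markers was 33.7 to 121 CPM in Selfox 3, 4, 5, 8 and 10, 5.02 to 8.95 in the other Selfox libraries and 4.17 to 12.2 in Control. Selfox 10 had the lowest Angptl4 of its group, 40.1 CPM. The part of these cells in the result was not tested. Of the 8 adipocyte markers, Lep was at 0 in every library, and the list summed to 69.6 to 87.4 CPM in Control, 71.3 to 96.0 in LPS and 70.8 to 111 in Selfox. Most of this sum was Cidec, at 50.4 to 62.9 CPM in Control, 54.6 to 75.7 in LPS and 57.7 to 95.9 in Selfox. Only 4 of the 8 markers had enough counts to be tested.

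Genes of uptake and activation varied in direction. Cd36, a fatty acid translocase, rose by 0.88 ± 0.25 in Selfox (adjusted p = 0.0104), where 8 of 10 libraries lay above every Control library, and had a change of 0.58 ± 0.26 in LPS (adjusted p = 0.144). Slc27a2, which encodes a very long chain acyl-CoA synthetase, fell by 0.43 ± 0.09 in Selfox (adjusted p = 0.00161), with a change of -0.28 ± 0.10 in LPS (adjusted p = 0.0715). The change of Slc27a2 in LPS passed without Control 55 (-0.36, adjusted p = 0.00531), without LPS 5 (-0.32, adjusted p = 0.0492), without the late-clock libraries (-0.43, adjusted p = 0.00691), with DESeq2 and with limma voom. For neither gene did Selfox differ from LPS past the threshold (adjusted p = 0.408 for Cd36 and 0.281 for Slc27a2). Fabp1, the liver fatty acid binding protein gene, had intervals of -0.30 to 0.34 in LPS and -0.35 to 0.23 in Selfox around changes of 0.02 and -0.06. Acsl1, the main hepatic long-chain acyl-CoA synthetase gene, did not pass either (adjusted p = 0.383 and 0.564). Its difference between the models was 0.25 (adjusted p = 0.11) and passed without LPS 5 (0.32, adjusted p = 0.0425) or Selfox 4 (0.30, adjusted p = 0.033).

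All 5 genes of carnitine transfer fell in both models. Cpt1a encodes the outer-membrane carnitine palmitoyltransferase, the controlled step of mitochondrial entry. Cpt1a ran from 345 to 717 CPM in Control (median 479), from 165 to 509 in LPS (median 256) and from 145 to 292 in Selfox (median 203). All 10 Selfox libraries lay below every Control library, and so did 6 of 7 LPS libraries; LPS 6 reached 509. Cpt1a fell by 0.78 ± 0.22 in LPS (adjusted p = 0.0185) and by 1.20 ± 0.20 in Selfox (adjusted p = 0.000141). Without Control 49, the highest Control library, the change in LPS was -0.65 (adjusted p = 0.0641).

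Cpt2, the inner-membrane partner of Cpt1a, separated the groups fully. Control libraries held 107 to 196 CPM of Cpt2 (median 144), LPS libraries 49.2 to 84.9 (median 60.6) and Selfox libraries 51.7 to 98.8 (median 73.0). Every treated library was below every Control library, Control 55 included. Cpt2 fell by 1.20 ± 0.16 in LPS (adjusted p = 0.000126) and by 1.02 ± 0.15 in Selfox (adjusted p = 3.56e-05). Slc25a20, the carrier that exchanges acylcarnitine for carnitine across the inner membrane, fell by 0.70 ± 0.11 and 0.61 ± 0.10.

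Crat and Crot encode carnitine acetyl- and octanoyltransferases, which act on short and medium chains. Crat stood at 19.4 to 44.7 CPM in Control (median 30.4), 7.56 to 22.1 in LPS (median 12.9) and 5.67 to 21.8 in Selfox (median 11.5). It fell by 1.05 ± 0.26 in LPS (adjusted p = 0.0106) and by 1.27 ± 0.24 in Selfox (adjusted p = 0.000533), with 7 of 7 and 10 of 10 libraries below the 5 Control libraries other than Control 55. Crot stood at 140 to 484 CPM in Control (median 409.9), 37.6 to 199 in LPS (median 115) and 80.9 to 254 in Selfox (median 178). The value of 140 was Control 55; the next lowest Control library held 317, above every treated library. Crot fell by 1.61 ± 0.36 in LPS (adjusted p = 0.0052) and by 1.09 ± 0.32 in Selfox (adjusted p = 0.0152).

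Of 14 further tested genes of activation and carnitine supply, 3 fell and 3 rose in LPS, and 4 fell and 6 rose in Selfox. Acacb encodes the mitochondrial acetyl-CoA carboxylase, whose product malonyl-CoA inhibits carnitine palmitoyltransferase 1. Acacb rose by 1.83 ± 0.35 in LPS (adjusted p = 0.00156) and by 2.32 ± 0.34 in Selfox (adjusted p = 5.59e-05). Its levels were 16.9 to 62.8 CPM in Control (median 19.5), 38.0 to 156 in LPS (median 112) and 84.3 to 189 in Selfox (median 124). Control 55 held the 62.8, within the LPS range and below every Selfox library. Acsl3, another acyl-CoA synthetase gene, rose by 0.97 ± 0.15 in Selfox, with a change of 0.43 in LPS (adjusted p = 0.0684). Dbi, the acyl-CoA binding protein gene, rose by 0.65 ± 0.19 in LPS and by 0.93 ± 0.19 in Selfox.

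**Figure D3:**
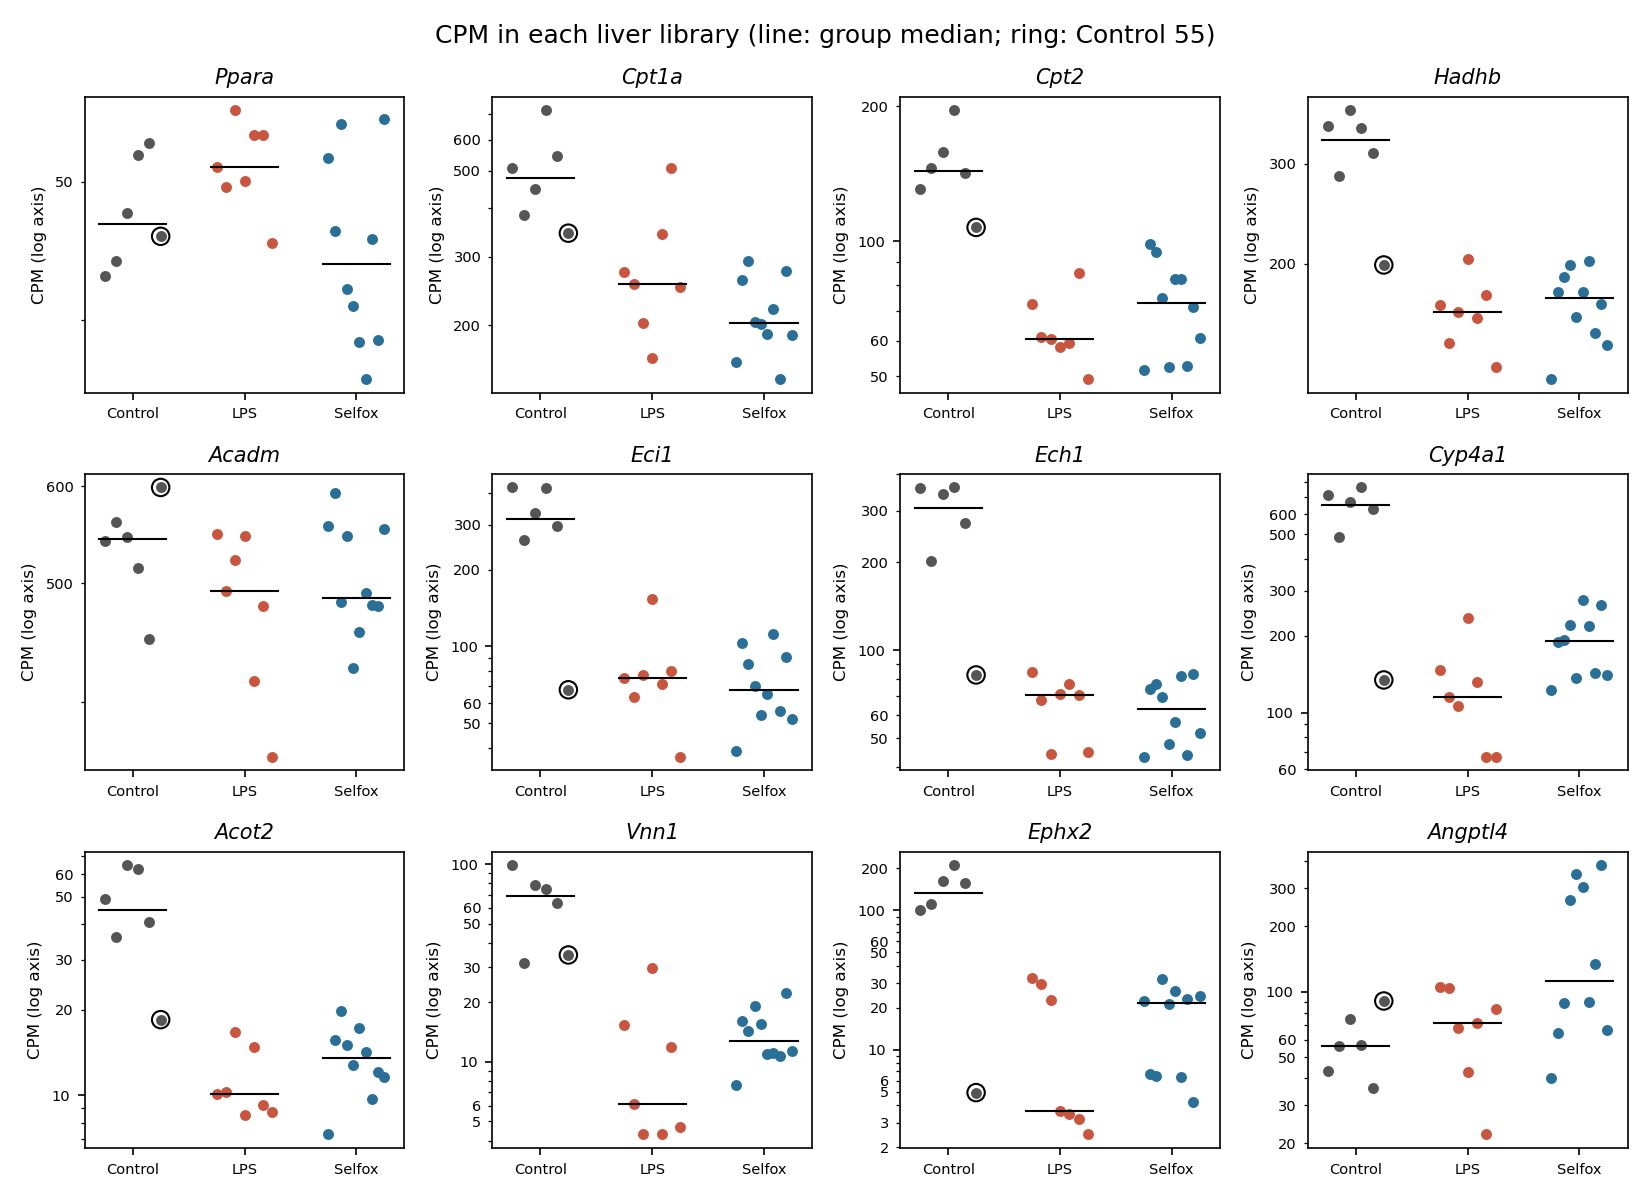
CPM of 12 genes (vertical axes, log scale) in each library by group, with a line at the group median and a ring around Control 55. Cpt2 and Vnn1 show every treated library below every Control library, Eci1, Cyp4a1 and Ephx2 show Control 55 among the treated values, and Ppara and Acadm overlap between groups.

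Within the mitochondrial spiral, 5 of 8 genes fell in LPS and 4 of 8 in Selfox. The genes of the trifunctional protein, which carries out the last steps on long chains, both fell. Hadha ran from 276 to 426 CPM in Control (median 396), from 229 to 309.5 in LPS (median 256) and from 208 to 295 in Selfox (median 258). All LPS and Selfox libraries lay below the 5 Control libraries other than Control 55, which held 276. Hadha fell by 0.55 ± 0.10 in LPS (adjusted p = 0.000696) and by 0.59 ± 0.09 in Selfox (adjusted p = 5.12e-05). Hadhb, its head-to-head neighbour, fell by 0.92 ± 0.13 (adjusted p = 0.000153) and 0.87 ± 0.12 (adjusted p = 1.59e-05).

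Acaa2, the medium-chain thiolase gene, fell by 0.75 ± 0.19 in LPS (adjusted p = 0.00985) and by 0.84 ± 0.17 in Selfox (adjusted p = 0.000902). Among the acyl-CoA dehydrogenases, which open each cycle, the very long chain gene Acadvl fell by 0.26 ± 0.06 in both. Acadl, the long-chain gene, fell by 0.32 ± 0.10 in LPS (adjusted p = 0.0364), and its change in Selfox was -0.18 ± 0.09 (adjusted p = 0.161). The Acadl call was lost in 8 of 13 fits that left out 1 library (Control 40, 41, 46, 49 or 52 or LPS 5, 6 or 7), with adjusted p up to 0.084, and without the late-clock libraries; the change in Selfox passed without Control 55 (-0.25, adjusted p = 0.0375). Acadm, Acads and Hadh did not pass. The medium-chain dehydrogenase gene Acadm had changes of -0.15 ± 0.10 and -0.08 ± 0.09, the short-chain dehydrogenase gene Acads -0.12 ± 0.08 and -0.02 ± 0.07, and the short-chain hydroxyacyl-CoA dehydrogenase gene Hadh -0.20 ± 0.08 and -0.08 ± 0.08. The 95% intervals reach no lower than -0.35 in Acadm and -0.29 in Acads. That of Hadh lay below 0 in LPS, at -0.37 to -0.03 (adjusted p = 0.112), and was -0.24 to 0.08 in Selfox.

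Auxiliary enzymes, which move or remove the double bonds of unsaturated fatty acids, fell in 3 of 4 tested genes in both models. Eci1 encodes a mitochondrial enoyl-CoA isomerase. Its Control libraries held 67.7 to 419 CPM (median 315), its LPS libraries 36.9 to 153 (median 75.1) and its Selfox libraries 39.0 to 112 (median 67.7). Control 55 was at 67.7 CPM, within both treated groups, and the other 5 Control libraries were at 261 or above. Eci1 fell by 1.91 ± 0.34 in LPS (adjusted p = 0.000974) and by 2.04 ± 0.30 in Selfox (adjusted p = 6.17e-05).

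Ech1 encodes a dienoyl-CoA isomerase, and its levels followed the same pattern over libraries. They were 82.3 to 360.2 CPM in Control (median 306), 44.2 to 84.4 in LPS (median 70.5) and 43.2 to 82.6 in Selfox (median 63.0). Only Control 55, at 82.3, fell within the treated range. Ech1 fell by 2.04 ± 0.26 in LPS (adjusted p = 8.33e-05) and fell by 2.10 ± 0.23 in Selfox (adjusted p = 2.28e-06). Decr1, the dienoyl-CoA reductase gene, held 106 to 289 CPM in Control (median 235), 76.9 to 186 in LPS (median 99.8) and 60.6 to 131 in Selfox (median 109.9). It fell by 0.93 ± 0.22 (adjusted p = 0.00697) and 1.06 ± 0.20 (adjusted p = 0.00049). Eci2, whose product acts on the same bonds as that of Eci1, had changes of -0.02 ± 0.08 and 0.10 ± 0.08 (adjusted p = 0.904 and 0.315).

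The electron transfer flavoprotein passes electrons from the dehydrogenases to the respiratory chain. Its subunit genes Etfa and Etfb did not pass in either model (changes of 0.13 and 0.01 in LPS, and of 0.19 and -0.09 in Selfox). Etfdh, which encodes the membrane enzyme that receives these electrons, fell by 0.40 ± 0.09 in LPS (adjusted p = 0.00546), with all 7 libraries below every Control library. In Selfox its change was -0.20 ± 0.08 (adjusted p = 0.0816), and the difference between the models was 0.20 (adjusted p = 0.101; 0.26 without LPS 1, adjusted p = 0.0401). The change of Etfa in Selfox passed without Control 40 (0.24, adjusted p = 0.0407).

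Ketogenesis, which uses the acetyl-CoA made by beta-oxidation, was covered by 4 genes outside the list. Of these, 3 fell in LPS and 2 in Selfox. Acat1, the acetoacetyl-CoA thiolase gene, fell by 0.60 ± 0.11 and 0.36 ± 0.10. Bdh1, whose product makes beta-hydroxybutyrate, fell by 0.63 ± 0.12 in LPS and had a change of -0.25 in Selfox (adjusted p = 0.0739), a difference between the models of 0.38 ± 0.10 (adjusted p = 0.0149).

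Of 11 further mitochondrial enzyme and uncoupling genes, 2 fell and 1 rose in LPS, and 4 fell and 3 rose in Selfox. Ucp2, an uncoupling protein gene, fell by 0.93 ± 0.11 in Selfox (adjusted p = 4.22e-06) and had a change of -0.25 in LPS (adjusted p = 0.171). In Selfox libraries the summed level of Kupffer cell markers was 251 to 388 CPM, against 707 to 950 in Control and 616 to 936 in LPS, and its part in Ucp2 was not tested. Acot13, a thioesterase gene, rose by 0.50 ± 0.14 and 0.75 ± 0.13, and Acad9, which encodes an assembly factor of respiratory complex I, rose by 0.43 ± 0.08 in Selfox, with 0.15 in LPS (adjusted p = 0.25).

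Of the 5 tested peroxisomal genes, 2 fell in each model. Pex11a, which encodes a protein of peroxisome division, held 26.0 to 72.1 CPM in Control (median 51.9), 8.87 to 23.9 in LPS (median 14.8) and 11.01 to 27.8 in Selfox (median 17.9). All 7 LPS libraries and 9 of 10 Selfox libraries lay below every Control library. Pex11a fell by 1.58 ± 0.26 in LPS (adjusted p = 0.000563) and by 1.46 ± 0.23 in Selfox (adjusted p = 0.000119). Hsd17b4, the multifunctional enzyme gene for branched chains and bile acid precursors, fell by 0.24 ± 0.07 and 0.20 ± 0.07. Its calls were lost in 5 of 13 fits (without Control 40, 46, 49 or 52 or LPS 5; adjusted p up to 0.0636) and in 4 of 16 fits (without Control 40, 46, 49 or 52; up to 0.0749).

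Ehhadh encodes the other multifunctional enzyme of peroxisomes and is a classical PPAR-alpha target. Its changes were -0.71 ± 0.27 in LPS (adjusted p = 0.0807) and -0.49 ± 0.25 in Selfox (adjusted p = 0.14). Control 55 held 135 CPM of Ehhadh and the other Control libraries 299 to 721. Without Control 55 the changes were -0.90 (adjusted p = 0.00403) and -0.69 (adjusted p = 0.00878), both past the threshold. Acaa1a, a peroxisomal thiolase gene, had changes of -0.04 ± 0.11 and 0.02 ± 0.10. Acox2, the oxidase gene for branched chains and bile acid precursors, did not pass against Control (0.23 and -0.14) but was lower in Selfox than in LPS by -0.37 ± 0.10 (adjusted p = 0.0122). Without the late-clock libraries that difference no longer passed.

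Of 19 further peroxisomal genes, 4 fell and 1 rose in LPS, and 5 fell and 5 rose in Selfox. Abcd2, a peroxisomal importer of very long chain acyl-CoA, fell by 2.41 ± 0.45 in Selfox (adjusted p = 0.000489), with -1.29 ± 0.49 in LPS (adjusted p = 0.0778). Abcd2 levels were low, at 0.69 to 6.76 CPM in Control (median 3.68), 0.92 to 2.36 in LPS (median 1.29) and 0.11 to 1.17 in Selfox (median 0.63). The lowest Control library, Control 46, lay within the Selfox range. Phyh, the phytanoyl-CoA hydroxylase gene of alpha-oxidation, fell by 0.48 ± 0.16 and 0.61 ± 0.15.

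All 3 omega-hydroxylase genes fell in both models. Cyp4a1, Cyp4a2 and Cyp4a3 belong to a family of close copies, between which reads may be split, so the value of each is uncertain. Cyp4a1 stood at 134 to 763 CPM in Control (median 651), 67.1 to 234 in LPS (median 115) and 123 to 276 in Selfox (median 191). Control 55 held the 134, and the other 5 Control libraries 486 or more, above every treated library. Cyp4a1 fell by 2.19 ± 0.33 in LPS (adjusted p = 0.000318) and by 1.57 ± 0.29 in Selfox (adjusted p = 0.00043).

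Cyp4a2 had a wide range within every group. Its levels were 596 to 3889 CPM in Control (median 2707), 119 to 913 in LPS (median 251) and 211 to 1596 in Selfox (median 525). Again all treated libraries lay below the 5 Control libraries other than Control 55. Cyp4a2 fell by 2.83 ± 0.54 in LPS (adjusted p = 0.00174) and fell by 1.88 ± 0.47 in Selfox (adjusted p = 0.00488). Cyp4a3 ran from 323 to 1420 CPM in Control (median 964), 192 to 405 in LPS (median 321) and 299 to 770.2 in Selfox (median 438). It fell by 1.58 ± 0.27 (adjusted p = 0.000657) and 0.93 ± 0.24 (adjusted p = 0.00603). The 3 genes were higher in Selfox than in LPS by 0.62, 0.94 and 0.65, and none of these differences passed (adjusted p = 0.163, 0.193 and 0.073). That of Cyp4a3 passed with DESeq2 (adjusted p = 0.0303) and with LPS and Selfox fitted without Control (0.0413).

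Thioesterases release free fatty acids from acyl-CoA, and the 3 tested genes of the Acot1 to Acot4 cluster fell in both models. The genes of this cluster are related in sequence, so reads may be split between them. Acot2, the mitochondrial form, stood at 18.5 to 64.8 CPM in Control (median 44.9), 8.51 to 16.6 in LPS (median 10.1) and 7.26 to 19.9 in Selfox (median 13.5). All 7 LPS libraries and 9 of 10 Selfox libraries were below every Control library. Acot2 fell by 2.02 ± 0.25 in LPS (adjusted p = 7.7e-05) and by 1.74 ± 0.22 in Selfox (adjusted p = 1.32e-05).

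Acot3 and Acot4, peroxisomal in other rodents, had the same order of groups. Acot3 held 5.50 to 19.6 CPM in Control (median 10.9), 1.78 to 4.87 in LPS (median 2.64) and 1.57 to 6.10 in Selfox (median 3.32), and fell by 1.99 ± 0.31 (adjusted p = 0.000381) and 1.78 ± 0.28 (adjusted p = 8.93e-05). Acot4 held 16.4 to 47.9 CPM in Control (median 32.1), 4.56 to 14.9 in LPS (median 7.49) and 3.92 to 21.1 in Selfox (median 11.1), and fell by 1.97 ± 0.31 (adjusted p = 0.000458) and 1.63 ± 0.28 (adjusted p = 0.000216). For both genes all 7 LPS libraries and 9 of 10 Selfox libraries lay below every Control library. Acot8 and Acot12, thioesterase genes outside the cluster whose promoters also hold the repeat shown above, did not pass. Acot8 had changes of 0.16 ± 0.10 and 0.09 ± 0.09, and Acot12 of -0.15 ± 0.14 and -0.05 ± 0.13.

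Promoter matches with at most 1 mismatch were thus in 2 genes that fell, Acadvl and Acot4, and in 3 that did not pass, Acot8, Acot12 and Fabp1. Of the genes that fell in either model, 19 had a promoter in the table.

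Among the other PPAR-alpha targets, Vnn1 and Ephx2 fell and Pdk4 did not pass. Vnn1, which encodes the pantetheinase vanin-1, held 31.6 to 98.9 CPM in Control (median 68.9), 4.30 to 29.9 in LPS (median 6.10) and 7.63 to 22.2 in Selfox (median 12.8). Every treated library lay below every Control library, and the lowest Control library was Control 41, not Control 55. Vnn1 fell by 2.54 ± 0.42 in LPS (adjusted p = 0.000657) and by 2.19 ± 0.37 in Selfox (adjusted p = 0.000223).

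Ephx2 encodes soluble epoxide hydrolase and had the largest fall of the 44 genes in each model. Its levels were 4.94 to 212 CPM in Control (median 134), 2.47 to 32.6 in LPS (median 3.64) and 4.23 to 32.4 in Selfox (median 21.8). The 6 Control libraries were Control 55 at 4.94 CPM and the other 5 at 101 to 212. The values within the treated groups were uneven as well. LPS 1, 2 and 3 held 22.9 to 32.6 CPM and LPS 4, 5, 6 and 7 held 2.47 to 3.64. Selfox 1, 2, 6 and 8 held 4.23 to 6.67 and the other 6 Selfox libraries 21.3 to 32.4, with no library of either group between the low and the high values. Ephx2 fell by 3.16 ± 0.76 in LPS (adjusted p = 0.00822) and by 2.84 ± 0.66 in Selfox (adjusted p = 0.00288). All 5 late-clock libraries had low Ephx2 (2.47 to 4.94 CPM), and so did LPS 4 and Selfox 1, 2 and 6, which are not late-clock libraries; the part of the clock was not tested.

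Pdk4 encodes a kinase that shuts off pyruvate dehydrogenase in fasting. It ran from 17.3 to 188 CPM in Control (median 81.0), from 20.8 to 136 in LPS (median 122) and from 31.1 to 244 in Selfox (median 92.9), and the groups overlapped. Its changes were 0.24 ± 0.48 and 0.27 ± 0.44 (adjusted p = 0.781 and 0.681). The 95% interval was -0.75 to 1.23 in LPS and -0.65 to 1.20 in Selfox.

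Of 25 further genes reported as PPAR-alpha targets, 4 fell and 1 rose in LPS, and 7 fell and 3 rose in Selfox. Fabp7, a fatty acid binding protein gene, fell by 2.51 ± 0.27 (adjusted p = 2e-05) and 2.28 ± 0.24 (adjusted p = 1.28e-06). Mgll, the monoacylglycerol lipase gene, fell by 0.77 ± 0.13 and 0.54 ± 0.12. Txnip, a glucose-responsive gene, was lower in Selfox than in LPS by -0.89 ± 0.16 (adjusted p = 0.000531). Over the 6 related lists and the feeding-state list, 103 of 114 genes were tested, of which 18 fell and 12 rose in LPS and 27 fell and 28 rose in Selfox.

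Of the 44 tested genes, 16 passed in neither model: Ppara, Fgf21, Fabp1, Acsl1, Acadm, Acads, Hadh, Eci2, Etfa, Etfb, Acox2, Ehhadh, Acaa1a, Acot8, Acot12 and Pdk4. Within LPS, LPS 7 held the lowest value for 26 of the 44 genes, and within Selfox, Selfox 10 did for 22. Hepatocyte markers summed to 126538 CPM in LPS 7, the lowest of the 23 libraries. In Selfox 10 they summed to 157391 CPM, above the Selfox median of 155419. Alb, the largest part of this sum, was also lowest in LPS 7 among the LPS libraries, at 65030.5 CPM.

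**Figure D4:**
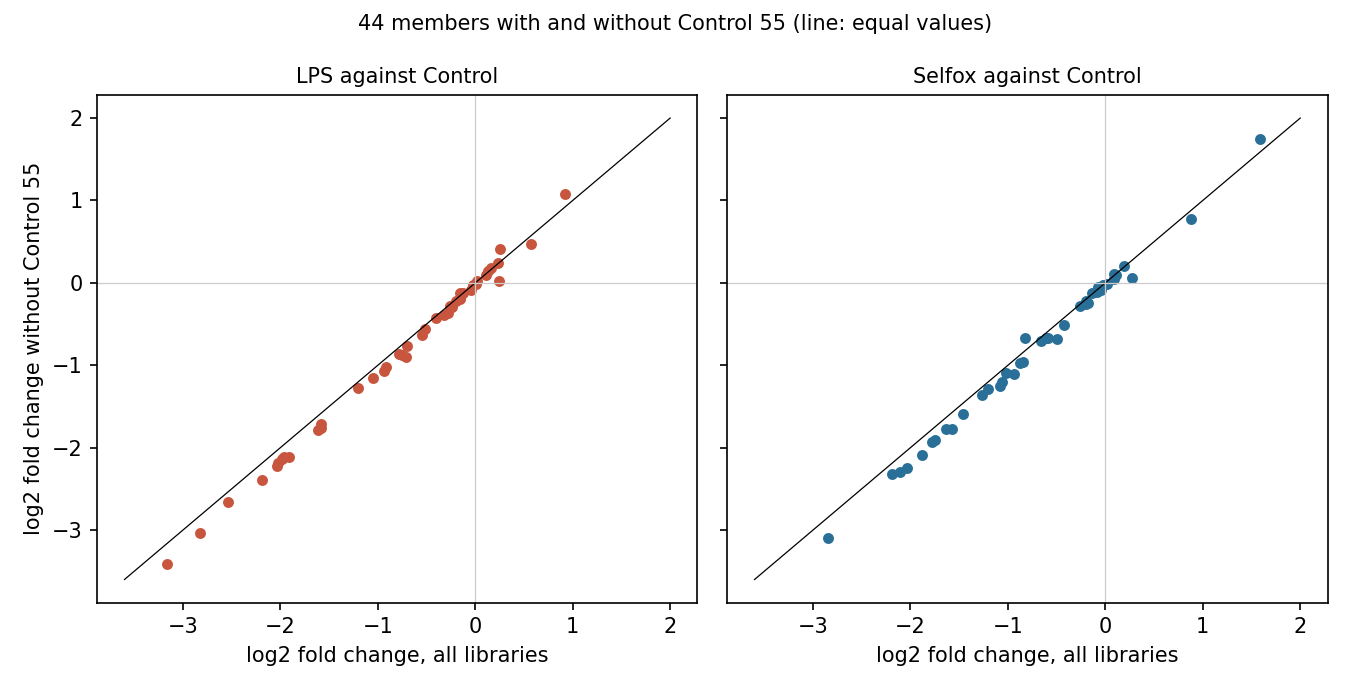
Log2 fold change of each tested gene fitted with all libraries (horizontal axis) and without Control 55 (vertical axis), for LPS (left) and Selfox (right) against Control, with a line of equal values. Points on the lower left lie below the line: without Control 55 the falls were larger, with Ephx2 at the far end of each panel.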

How the data were processed

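RNA of 23 rat liver libraries was sequenced after a stranded mRNA library preparation, per the labels' protocols. The deposited table holds raw counts per gene, which the authors made with STAR 2.7.9a and featureCounts of Subread 2.0.3 after FastQC and Trim Galore, per the submitters' processing notes. Which genome build, annotation and strand option served was not given in the sources used here; where genes overlap or lie antisense to each other, their counts are therefore uncertain.

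Counts were filtered with filterByExpr (minimum count 10), which kept 15079 of 28913 rows and 99.99% of counts, scaled by TMM, and tested with the edgeR 4.0.16 quasi-likelihood F test (robust) in R 4.3.3. All 3 groups entered 1 fit with no covariate. P-values were adjusted by Benjamini-Hochberg over all genes, with a threshold of 0.05, and standard errors were derived from the F statistic. CPM in sentences are unlogged; log2 CPM used a prior count of 2. The biological coefficient of variation was 0.235. No pair of libraries within a group agreed within sampling noise (chi-square per gene of at least 23.4). The fit was tested on simulated data with known changes, drawn independently for each gene and library. That simulation held no trait shared by the genes of a library, so it does not cover such traits. Alternatives tried were upper-quartile and RLE scaling, no filter, a minimum count of 50, DESeq2 1.42.0, limma 3.58.1 voom, the groups compared alone, thinning to equal depth, counts divided by 2, a replicate block and leaving out libraries.

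The 47 genes and the related lists were chosen with earlier results of these data known. Lowest, median and highest values are given for genes called with a log2 fold change of at least 1 in size in any comparison and for Ppara, Cpt1a, Fgf21, Pdk4, Angptl4 and Hadha; other genes are given by counts and changes. From each related list, up to 3 genes with the lowest adjusted p over the 3 comparisons are named, and from the feeding-state list any gene. From these lists Rxra, and Cidec as a cell marker, are named as well. Genes of these lists are not among the 47, and some of them are not reported here.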

Additional observations from a re-analysis of the deposited data

Results flagged for a closer look

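In 12 of 132 groups of a gene's values the highest or lowest library stood apart by more than Dixon's 95% limit; chance alone flags about 5% of groups, or 6.6 of 132. Of the 12, 9 were Control 55 as the lowest Control library. Its values were 140 CPM for Crot (next lowest Control library 317), 260.2 for Acadl (345), 276 for Hadha (383), 257 for Acaa2 (415), 67.7 for Eci1 (261), 134 for Cyp4a1 (486), 596 for Cyp4a2 (2392), 323 for Cyp4a3 (858) and 4.94 for Ephx2 (101). In LPS, LPS 7 was low in Acaa2 at 131 CPM (next 250), LPS 3 was low in Acox2 at 442 CPM (next 551), and LPS 6 was high in Acot12 at 259.9 CPM (next 175). Values of 1 library share its RNA and are not independent of each other.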

How the results depend on the processing

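Counts of genes lower in LPS and Selfox against Control stayed within 1.5 times of those reported under every alternative run, and 22 of 25 and 25 of 26 calls were kept in every fit that left out 1 library. The few calls between Selfox and LPS were less stable. The count higher in Selfox than in LPS was 0 with no filter, with limma voom, without the late-clock libraries and with counts thinned to equal depth, and 2 with DESeq2 (Angptl4 and Cyp4a3); leaving out 1 library gave 0 to 1. With these 2 groups alone and in both fits of the libraries with shared numbers the count was 1, but that gene was Cyp4a3, and the call of Angptl4 was lost (adjusted p = 0.0773, 0.149 with the block and 0.0547 without it). The count lower in Selfox than in LPS was 1 without the late-clock libraries. With replicate numbers 1 to 7 of LPS and Selfox as a block it was 1 (the call of Fgf21 was lost, adjusted p = 0.126), with 1 higher, and in the same libraries without the block 2 and 1. The numbers do not pair the samples: correlations of same-numbered libraries were -0.06 to 0.18, 1 of 7 above 0.1, and 1 of 7 libraries correlated best with its own number. The cause of these changes was not tested. Acot1 was below the count filter with all libraries and above it without Control 55 or without the late-clock libraries.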
